A study of Mus musculus with 4 samples.

Results

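The translation initiation factors (eIF) and elongation factors (eEF) were examined in the RNA-seq data of fetal brown adipose tissue (BAT). Members were the autosomal protein-coding genes whose mouse symbol starts with Eif1 to Eif6, Eef1 or Eef2, without the Eif2ak kinases and without symbols marked as pseudogenes, and 61 of the 22298 genes in the count table met this rule. The fetuses, at E18.5 on the last day of gestation, were all labelled male and of strain C57BL/6, and the study's methods name the mice C57BL/6J. The control dams drank tap water and the fructose dams drank 20% (w/v) fructose water during gestation, with 2 libraries of total RNA per group and 4 in all. Neither the labels nor the study's methods give the number of fetuses or litters behind a library, so the p-values below measure only the spread between these libraries. BAT in this study was whole dissected tissue, in which fewer cells of a type and less RNA per cell cannot be told apart.

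Protein synthesis starts when eIF2 carries the initiator tRNA to the small ribosomal subunit, together with eIF1, eIF1A, eIF3 and eIF5. The eIF4 factors bind the mRNA cap, unwind the leader and bring the ribosome to it, and the eIF4E-binding proteins block that step when the mTORC1 kinase is inactive. eEF1 then delivers each aminoacyl-tRNA to the elongating ribosome, and eEF2 moves the ribosome along the mRNA. Many mRNAs of the translation machinery begin with a cytosine and a run of pyrimidines at their 5′ end, the TOP motif, through which their translation follows nutrient supply and mTORC1.

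A level is written as CPM, the count of a gene relative to the total count of its library after TMM normalization. A log2 fold change is fructose minus control with its standard error (SE), and a gene was called at an adjusted p under 0.05 in edgeR's quasi-likelihood test, adjusted by Benjamini-Hochberg over all 12888 genes tested. Total counts ran from 18542897 to 23645147 per library, a depth at which 3 counts correspond to 0.123 to 0.166 CPM. Mitochondrially encoded genes took 5.89% and 6.49% of the counts in control and 10.8% and 11.2% in fructose. The brown adipocyte markers were present in every library, with a summed level of 22314.1 to 26157.9 CPM over 13 genes. All 18 skeletal muscle markers were called higher in fructose and 5 of 7 erythroid markers lower, beside 15.5% and 10.7% of all tested genes. Of the brown adipocyte markers, 2 were called higher and 3 lower. With the trends of all genes over transcript length and GC content removed, 15 muscle markers and 0 erythroid markers kept their call. After this removal 1 brown adipocyte marker was called higher and 0 lower. Over 4 genes of the Y chromosome (Ddx3y, Eif2s3y, Kdm5d, Uty), the control libraries held 422 and 390 counts and both fructose libraries held 0, which goes against the label male of the fructose libraries. Each difference below therefore cannot be told apart from a difference of fetal sex between the groups.

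The 5′ ends of factors taken as TOP mRNAs are shown first, because Eef1a1 and Eef2, the most abundant members, are among them. Of the 9 factors taken as TOP mRNAs (Eef1a1, Eef1b2, Eef1d, Eef1g, Eef2, Eif3e, Eif3f, Eif3h and Eif4b), 5 had a start in the RefSeq promoter table of build GRCm38.p6. The 30 bases printed run from 10 bases before to 20 bases after the start, on the coding strand, and capitals mark a tract, defined as a C followed by at least 4 C or T that begins among the 10 bases before the start or the first 10 bases from it.
Eef1a1 (chr9:78481705-78481734, minus strand): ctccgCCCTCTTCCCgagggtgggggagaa
Eef1b2 (chr1:63176821-63176850, plus strand): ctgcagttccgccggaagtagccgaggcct
Eef2 (chr10:81176621-81176650, plus strand): aaggccgggcgttgacgtcagcggtctctt
Eif3f (chr7:108934405-108934434, plus strand): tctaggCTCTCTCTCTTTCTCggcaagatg
Eif4b (chr15:102073763-102073792, plus strand): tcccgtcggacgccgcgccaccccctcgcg
The tract was found at the annotated start of Eif3f, with 15 bases, and of Eef1a1, with 10 bases. In Eif4b such a run begins on the next base past this limit and in Eef2 farther downstream, so these were not counted. Over the 59 promoters listed for 45 of the members, 15 (25.4%) held such a tract, against 29.7% of all 32851 promoters in the table, so the tract was not more frequent among the members' annotated starts. With the limit moved by that base, a choice made after seeing the data, the shares were 27.1% and 30.7%. The start in the table need not be the one used in this tissue.

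Of the 61 members, 58 passed the filter on low counts and were tested. Transcripts of 8 members (13.8%) rose in fructose, beside 15.5% of all tested genes, and transcripts of 17 members (29.3%) fell, beside 10.7% of all tested genes. The median log2 fold change of the tested members was -0.12, against 0.00 over all tested genes. By the thresholds of the study's methods, an unadjusted p under 0.05 and a fold change above 1.3, 9 members were higher and 9 lower, beside 17.6% and 6.18% of all tested genes. The fructose libraries both lay above the control libraries in 16 members and below them in 30, beside 33.4% and 31.6% of all tested genes. The remaining 33 tested members were not called. Of the 25 calls, 12 were made whichever library was left out and 13 were lost in at least 1 such fit. The count of lower members was 9 without fructose library 1 and 9 without fructose library 2, and it was 20 without control library 1.

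**Figure D1:**
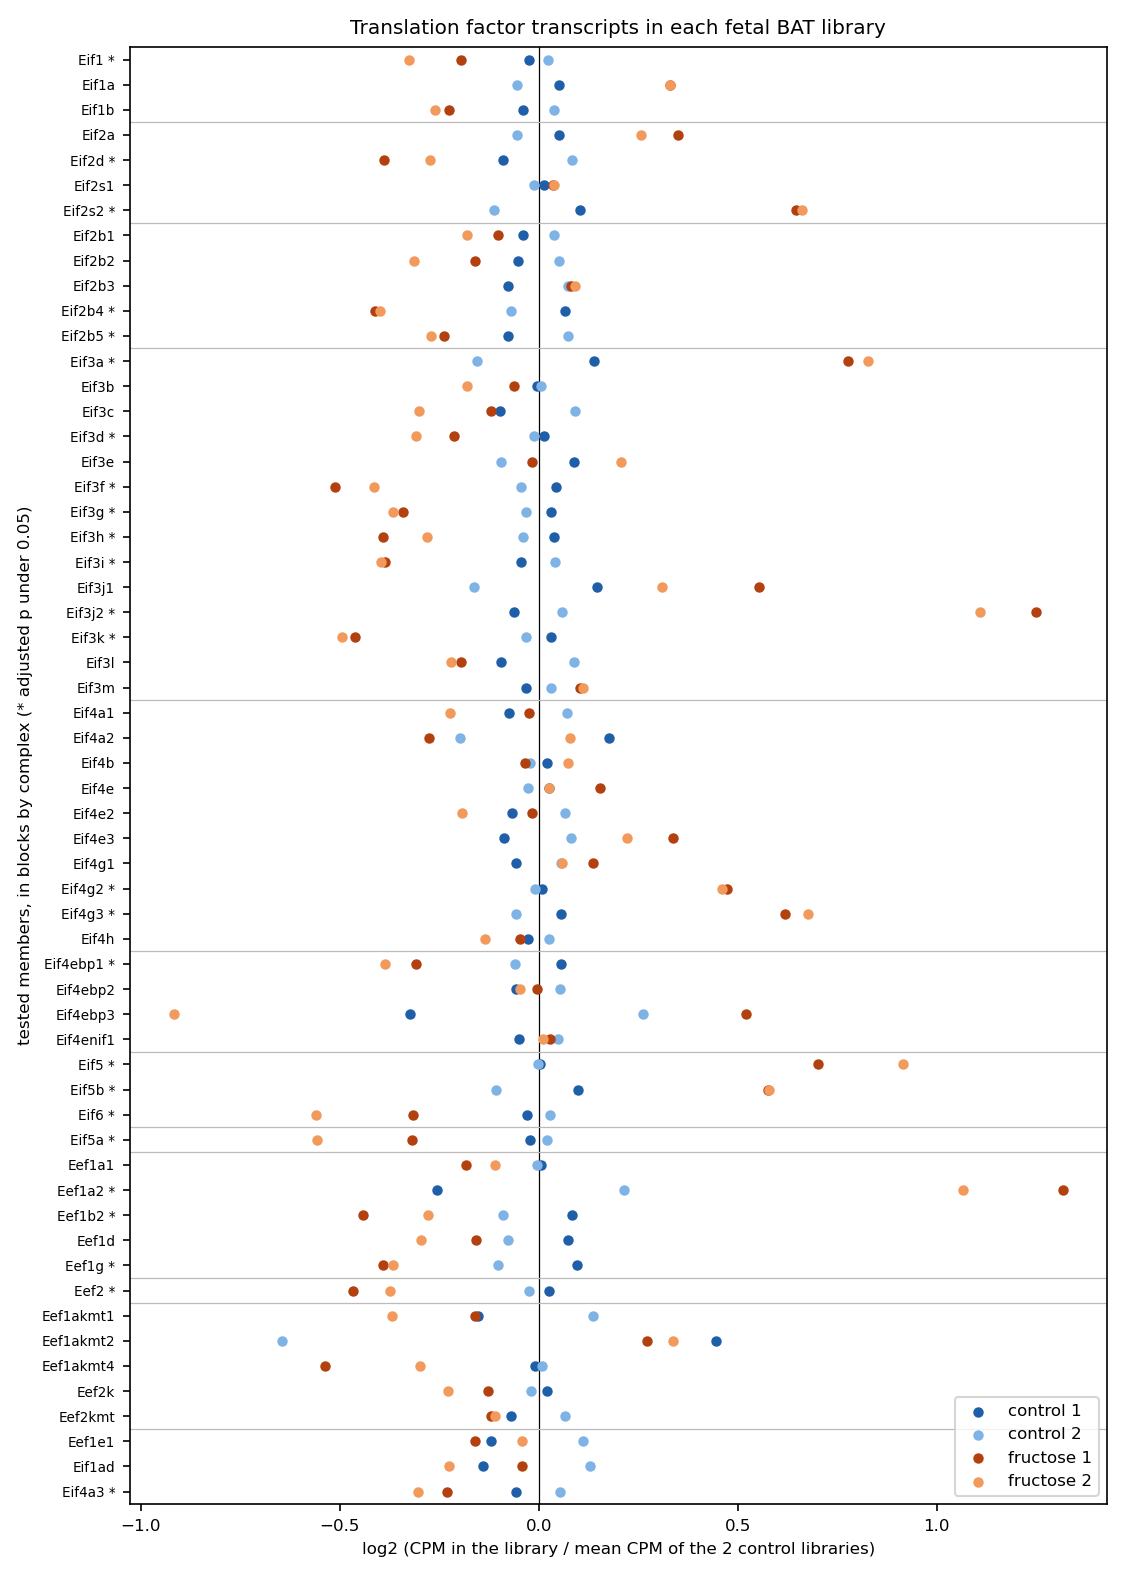
Level of each of the 58 tested members in the 4 libraries, as log2 of the CPM over the mean CPM of the 2 control libraries (horizontal axis), with members in blocks by complex (vertical axis) and an asterisk for an adjusted p under 0.05. The fructose points of Eef1a2, Eif3j2, Eif5 and Eif3a lie farthest to the right, and those of most eIF3 subunits, Eif5a, Eif6 and Eef2 lie to the left of both control points.

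The 3 members that were not tested were at or near the detection limit in this tissue. Eif4e1b, a cap-binding protein known from oocytes, had 0 counts in all 4 libraries. Eif5a2, the rarer paralog of Eif5a, had 6 and 0 counts in control and 16 and 10 in fructose. Eef1akmt3, a lysine methyltransferase of eEF1A, had 2 and 2 counts in control and 8 and 3 in fructose.

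The members together took 1.63% and 1.60% of all counts in control library 1 and 2 and 1.43% and 1.49% in fructose library 1 and 2. Over the counts without mitochondrially encoded genes these shares came to 1.73% and 1.71% against 1.60% and 1.68%. The fructose libraries were below the control libraries on both bases, by a small margin on the latter. Levels per kilobase of the longest protein-coding transcript (CPM per kb, mean of the control libraries) were led by Eef1a1 with 2801, Eef2 with 1190 and Eif5a with 484. At the other end stood Eef1a2 with 0.664, Eif4ebp3 with 0.621, Eef1akmt3 with 0.0398, Eif5a2 with 0.0315 and Eif4e1b with 0.

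Among the eEF1 genes, the 2 that encode eEF1A, the carrier of aminoacyl-tRNA, went separate ways. Eef1a1 (chr9:78478449-78489151, GRCm38, minus strand), the form of most tissues, had 5043 and 5006 CPM in control and 4427 and 4653 CPM in fructose. The fructose libraries were below the control libraries, but the log2 fold change of -0.15 (SE 0.092, adjusted p = 0.265) was not called. Eef1a2 (chr2:181147653-181157014, GRCm38, minus strand), the form known from adult skeletal muscle, heart and neurons, had 1.16 and 1.61 CPM in control and 3.45 and 2.90 CPM in fructose, from 22, 29, 78 and 71 counts. The groups did not overlap, and Eef1a2 rose by 1.20 on the log2 scale (SE 0.305, adjusted p = 0.0142), the largest increase among the tested members. Without fructose library 1 the value was 1.07 and was not called (adjusted p = 0.0796).

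Counts of Eef1a2, from a transcript of similar length, amounted to 0.0230% and 0.0321% of those of Eef1a1 in control and to 0.0779% and 0.0623% in fructose, so that Eef1a1 remained the main eEF1A transcript in every library. The aligned coding sequences of the 2 genes were 80.1% identical and shared no run of 50 bases, but 59.2% of the 50-base windows of Eef1a1 also occur in transcripts of 20 other annotated genes, which makes its counts uncertain. The 18 skeletal muscle markers summed to 313 and 418 CPM in control and 940 and 723 CPM in fructose, with none at 0 in any library. The 4 libraries ranked in the same order for Eef1a2 and for the summed markers. Whether muscle transcripts account for the Eef1a2 value was not tested.

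**Figure D2:**
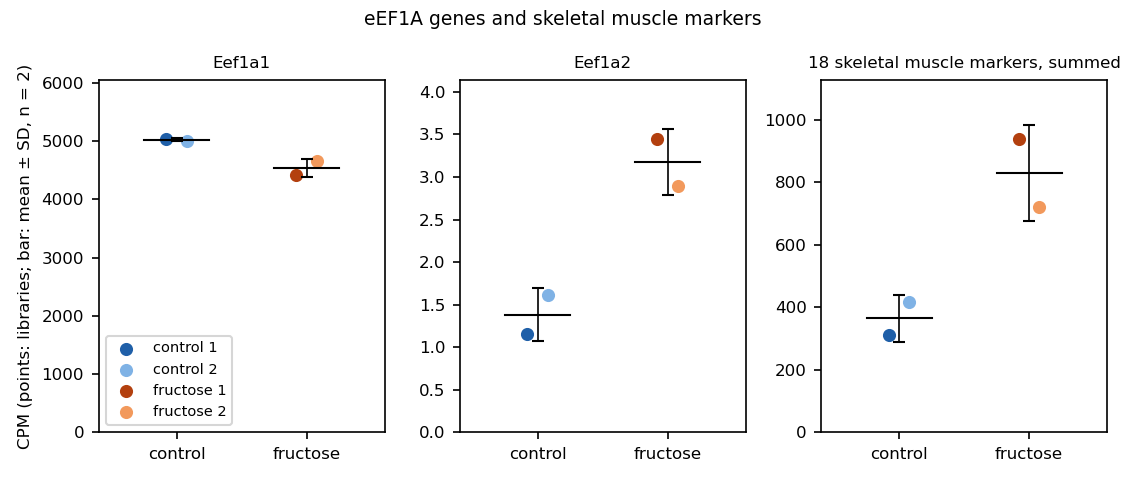
CPM of Eef1a1, of Eef1a2 and of 18 skeletal muscle markers summed (vertical axes, each starting at 0) in the control and fructose groups, with a point per library, a bar at the mean and whiskers for the SD (n = 2). Eef1a2 lay at 1.16 to 1.61 CPM in control and 2.90 to 3.45 CPM in fructose, and Eef1a1 at 5006 to 5043 and 4427 to 4653 CPM.

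The other eEF1 subunits form the exchange factor that reloads eEF1A with GTP, and 2 of the 3 fell, beside 10.7% of all tested genes. Eef1g, the structural gamma subunit, had 537 and 469 CPM in control and 383 and 390 CPM in fructose, a log2 fold change of -0.38 (SE 0.090, adjusted p = 0.0103). Its counts are uncertain as well, since 64.3% of its 50-base windows occur in transcripts of 5 other annotated genes. Eef1b2, a catalytic subunit, had 290 and 257 CPM in control and 202 and 226 CPM in fructose, a log2 fold change of -0.36 (SE 0.093, adjusted p = 0.0156). Both had all fructose values below all control values. The call of Eef1b2 was lost without fructose library 1, at -0.27 (adjusted p = 0.128). Eef1d, the other catalytic subunit, had 109 and 98.5 CPM in control and 93.3 and 84.7 CPM in fructose and was not called, with a log2 fold change of -0.23 (SE 0.089, adjusted p = 0.0819).

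Eef2 (chr10:81176631-81182498, GRCm38, plus strand), the translocase, was the second most abundant member per kilobase. Its level was 3740 and 3612 CPM in control and 2662 and 2839 CPM in fructose, with no overlap. Eef2 fell by 0.42 on the log2 scale (SE 0.092, adjusted p = 0.00707), which is 25.2% lower, and without fructose library 1 the value was -0.37 with an adjusted p of 0.0639. Eef2k, the kinase that phosphorylates and inhibits eEF2, had 40.3 and 39.2 CPM in control and 36.4 and 34.0 CPM in fructose, a log2 fold change of -0.18 that was not called (adjusted p = 0.177). None of the 5 tested members of the group of eEF2 kinase and of the methyltransferases of eEF1A and eEF2 was called. Over all tested genes 15.5% were called higher and 10.7% lower. The log2 fold changes of the 5 ran from -0.41 (Eef1akmt4) to 0.30 (Eef1akmt2). Eef1akmt2 rested on 85 and 38 counts in control and 90 and 102 in fructose, and its groups overlapped. Eef2kmt, the methyltransferase of eEF2 and the gene of this group with the highest CPM, stood at 49.2 and 54.1 CPM in control and 47.5 and 47.8 CPM in fructose and was not called (-0.11, adjusted p = 0.367).

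Eif5a, which carries the hypusine residue and helps the ribosome across difficult peptide bonds, had 685 and 707 CPM in control and 559 and 473 CPM in fructose. All fructose values were lower, with a log2 fold change of -0.43 (SE 0.096, adjusted p = 0.00729). The call was lost without fructose library 2, at -0.31 (adjusted p = 0.105). The enzymes that make hypusine stood in the list of eIF5A and eEF2 modification, of whose 8 tested genes 2 fell and none rose, beside the 10.7% and 15.5% of all tested genes. These were Dhps, deoxyhypusine synthase, with a log2 fold change of -0.50 (adjusted p = 0.00912), and Dohh, deoxyhypusine hydroxylase, with -0.48 (adjusted p = 0.00663), the enzymes of the first and the last step. Neither was called once the length and GC trends of all genes were removed, at -0.21 (adjusted p = 0.286) and -0.11 (adjusted p = 0.543).

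eIF3, the scaffold on the small ribosomal subunit, gave 6 of the 17 lower calls and 2 of the 8 higher calls among its 14 members. Of all tested genes, 10.7% were called lower and 15.5% higher. Eif3k, Eif3f, Eif3i, Eif3g, Eif3h and Eif3d fell, by 0.48, 0.46, 0.39, 0.35, 0.33 and 0.26 on the log2 scale, with adjusted p-values from 0.00182 (Eif3k) to 0.0330 (Eif3d). Eif3f (chr7:108934417-108942951, GRCm38, plus strand), whose start carries the pyrimidine tract printed above, had 371 and 349 CPM in control and 253 and 271 CPM in fructose. Eif3k, the smallest of these transcripts, had 194 and 186 CPM in control and 138 and 135 CPM in fructose. In each of the 6 genes both fructose libraries lay below both control libraries. The calls of Eif3d (-0.31 and -0.21 without fructose library 1 and 2), Eif3h (-0.28 without fructose library 1) and Eif3g (-0.34 without fructose library 2) depended on single libraries. Eif3d also shares 43.3% of its exon bases with an annotated transcript on the opposite strand, and whether the counting used strand is not given in the sources used here.

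Eif3a (chr19:60761117-60790658, GRCm38, minus strand), the largest core subunit, moved opposite to these subunits. It had 31.1 and 25.4 CPM in control and 48.4 and 50.2 CPM in fructose, with a log2 fold change of 0.80 (SE 0.108, adjusted p = 0.000647). The groups did not overlap, and the value stayed between 0.66 and 0.96 whichever library was left out. Eif3l, the most abundant eIF3 transcript, had 436 and 494 CPM in control and 406 and 399 CPM in fructose and was not called (-0.21, adjusted p = 0.103). Eif3e had 49.1 and 43.2 CPM in control and 45.6 and 53.3 CPM in fructose, overlapping groups with a log2 fold change of 0.10 (adjusted p = 0.516). The 12 subunits other than eIF3j, which sit together in 1 complex, differed widely in transcript level per kilobase, from 5.52 CPM per kb for Eif3a to 239.5 for Eif3l in control, with a median of 80.7.

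eIF3j, a loosely bound subunit, is encoded by a pair of genes that cannot be separated in these counts. Eif3j2 had 56, 58, 166 and 163 counts in control library 1 and 2 and fructose library 1 and 2, a log2 fold change of 1.18 (SE 0.207, adjusted p = 0.00237), and Eif3j1 had 268, 206, 424 and 388 counts, a log2 fold change of 0.43 (SE 0.151, adjusted p = 0.0531). Their coding sequences were identical over all 783 aligned bases, and 91.8% of the 50-base windows of Eif3j2 occur in transcripts of other genes. Summed as 1 gene, an alternative chosen after seeing the data, they had 17.1 and 14.6 CPM in control and 26.1 and 22.5 CPM in fructose, and the sum rose by 0.61 on the log2 scale (SE 0.131, adjusted p = 0.00643).

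eIF2 carries the initiator tRNA and consists of an alpha, a beta and a gamma subunit. Eif2s2, the beta subunit, had 19.5 and 16.8 CPM in control and 28.3 and 28.7 CPM in fructose and rose by 0.65 on the log2 scale (SE 0.116, adjusted p = 0.00244). Eif2s1, the alpha subunit whose phosphorylation lowers translation under stress, had 31.7 and 31.2 CPM in control and 32.2 and 32.3 CPM in fructose, a log2 fold change of 0.04 (SE 0.095, adjusted p = 0.805). The gamma subunit is sex-linked and no member. Eif2s3x, on the X chromosome, had 54.8 and 47.5 CPM in control and 96.7 and 95.6 CPM in fructose (log2 fold change 0.91, SE 0.090, adjusted p = 0.000156). Eif2s3y, its partner on the Y chromosome, had 155 and 146 counts in control and 0 in both fructose libraries, at least 63.8-fold lower against a floor of 3 counts per library. The gamma transcripts summed to 63.0 and 55.6 CPM in control and 96.7 and 95.6 CPM in fructose, so that the sum, like the beta subunit, lay higher in both fructose libraries. Eif2d, a factor that delivers tRNA independently of GTP, had 74.4 and 83.8 CPM in control and 60.4 and 65.5 CPM in fructose and fell by 0.33 on the log2 scale (SE 0.091, adjusted p = 0.0203). Its call was lost without control library 2 (-0.24) and without fructose library 1 (-0.27).

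eIF2B recharges eIF2 with GTP, and 2 of its 5 subunits fell while none rose, beside 10.7% and 15.5% of all tested genes. Eif2b4, the delta subunit, had 79.1 and 72.0 CPM in control and 56.8 and 57.3 CPM in fructose, a log2 fold change of -0.40 (SE 0.086, adjusted p = 0.00593). Eif2b5, the catalytic epsilon subunit and the most abundant of the 5, had 104 and 116 CPM in control and 93.3 and 91.3 CPM in fructose, a log2 fold change of -0.25 (SE 0.084, adjusted p = 0.0444). The call of Eif2b5 was lost without control library 2 (-0.18), fructose library 1 (-0.27) or fructose library 2 (-0.24), and DESeq2 did not make it. With the length and GC trends of all genes removed, neither gene was called in edgeR. Eif2b4 was then at -0.16 (adjusted p = 0.284) and Eif2b5 at -0.12 (adjusted p = 0.428). Eif2b3, the gamma subunit, stood at 9.34 and 10.4 CPM in control and 10.4 and 10.5 CPM in fructose (0.09, adjusted p = 0.701). Of the 6 tested kinases and phosphatase subunits that act on eIF2 alpha, 1 was called higher and none lower. This stands beside 15.5% and 10.7% of all tested genes. Eif2ak2, the double-stranded RNA kinase PKR, had 71 and 50 counts in control and 155 and 185 counts in fructose and rose by 1.14 on the log2 scale (SE 0.217, adjusted p = 0.00357).

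eIF1 and eIF1A scan for the start codon. Eif1 had 329 and 340 CPM in control and 292 and 267 CPM in fructose and fell by 0.26 on the log2 scale (SE 0.084, adjusted p = 0.0397), a call lost without fructose library 1 (-0.32) and without fructose library 2 (-0.19). Eif1b, its paralog, had 28.5 and 30.1 CPM in control and 25.0 and 24.5 CPM in fructose, a log2 fold change of -0.24 that was not called (adjusted p = 0.0969). Counts of Eif1b were between 8.57% and 9.16% of those of Eif1 over the 4 libraries, with overlapping groups. Eif1a had 12.8 and 11.9 CPM in control and 15.6 and 15.5 CPM in fructose and was not called (0.33, adjusted p = 0.0879).

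eIF5 triggers GTP hydrolysis on eIF2 when the start codon is found, eIF5B joins the large ribosomal subunit, and eIF6 keeps the subunits apart. Eif5 (chr12:111538016-111546752, GRCm38, plus strand) had 60.8 and 60.5 CPM in control and 98.7 and 114 CPM in fructose and rose by 0.81 on the log2 scale (SE 0.091, adjusted p = 0.000260), the lowest adjusted p among the members. Eif5b had 14.5 and 12.6 CPM in control and 20.2 CPM in both fructose libraries, a log2 fold change of 0.58 (SE 0.130, adjusted p = 0.00798). Eif6 had 49.3 and 51.3 CPM in control and 40.4 and 34.2 CPM in fructose and fell by 0.43 (SE 0.101, adjusted p = 0.00942). The groups did not overlap in any of the 3 genes, and only the call of Eif6 was lost when a library was left out, at -0.31 without fructose library 2 (adjusted p = 0.109). Eif5b shares 16.8% of its exon bases with Rev1 on the opposite strand.

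Among the cap-binding proteins, scaffolds and helicases of eIF4, 2 of 10 tested members rose and none fell, beside 15.5% and 10.7% of all tested genes. The median transcript length of these 10 members was 3664 bases, against 3161 bases over all tested genes. Eif4g3, a scaffold related to Eif4g1, had 21.6 and 20.0 CPM in control and 32.0 and 33.3 CPM in fructose, a log2 fold change of 0.65 (SE 0.104, adjusted p = 0.00151). Eif4g2, a scaffold that lacks the cap-binding arm, had 241 and 238 CPM in control and 333 and 330 CPM in fructose, a log2 fold change of 0.47 (SE 0.079, adjusted p = 0.00200). Eif4g1, the main scaffold, had 546 and 590 CPM in control and 624 and 592 CPM in fructose and was not called (0.10, adjusted p = 0.425). Counts of Eif4g3 reached 3.96% and 3.39% of those of Eif4g1 in control and 5.12% and 5.63% in fructose, without overlap.

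The cap-binding protein Eif4e had 39.0 and 37.6 CPM in control and 42.6 and 39.0 CPM in fructose and was not called (0.09, adjusted p = 0.505). Its relatives Eif4e2 (-0.10, adjusted p = 0.431) and Eif4e3 (0.28, adjusted p = 0.0720) were not called either. The helicase Eif4a1 had 337 and 373 CPM in control and 349 and 304 CPM in fructose (-0.12, adjusted p = 0.369). Eif4a2, its paralog, had 142 and 110 CPM in control and 104 and 133 CPM in fructose (-0.09, adjusted p = 0.661). In both helicase genes the groups overlapped, and the libraries of a group differed more than the group means. Eif4b, the helicase cofactor, overlapped as well, with 207 and 201 CPM in control and 199 and 214 CPM in fructose. Eif4a3, a relative that works in the exon junction complex rather than at the cap, had 92.2 and 99.5 CPM in control and 81.7 and 77.7 CPM in fructose. It fell by 0.27 on the log2 scale (adjusted p = 0.0343), a call that DESeq2 did not make and that was lost without control library 2 (-0.21), fructose library 1 (-0.30) or fructose library 2 (-0.23).

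Of the eIF4E-binding repressors, Eif4ebp1 fell. It had 170 and 157 CPM in control and 132 and 125 CPM in fructose, a log2 fold change of -0.35 (SE 0.083, adjusted p = 0.0107), and without fructose library 2 the value was -0.31 with an adjusted p of 0.0935. Eif4ebp2, a paralog at a similar level per kilobase (84.2 against 81.8 CPM per kb in control), had 469 and 505 CPM in control and 486 and 471 CPM in fructose, overlapping groups with a log2 fold change of -0.03 (adjusted p = 0.851). Eif4ebp3 had between 6 and 15 counts per library and could not be assessed at this depth. Counts of Eif4ebp1, not corrected for length, came to 36.2% and 31.0% of those of Eif4ebp2 in control and to 27.1% and 26.5% in fructose. Relative to Eif4e, its binding partner, they came to 435% and 417% in control and to 309% and 321% in fructose. These ratios hold the length and GC trends of all genes. With both trends removed, Eif4ebp1 was at -0.30 (adjusted p = 0.0492), Eif4ebp2 at -0.16 (adjusted p = 0.290) and Eif4e at -0.52 (adjusted p = 0.0124). Eif4ebp1 was then no longer lowered relative to Eif4e. Eif4enif1, the protein that takes eIF4E to the nucleus and to P-bodies, was not called (0.02, adjusted p = 0.902).

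Upstream of these repressors, 4 of 13 tested genes of mTORC1 and MNK signalling rose and 1 fell, beside 15.5% and 10.7% of all tested genes. Rps6kb1, an S6 kinase, rose by 0.84 on the log2 scale (adjusted p = 0.00404), Tsc1, an inhibitor of the pathway, by 0.45 (adjusted p = 0.0363), Pdcd4, an inhibitor of the eIF4A helicase, by 0.44 (adjusted p = 0.0246) and Larp1, which binds TOP mRNAs, by 0.34 (adjusted p = 0.0171). Akt1s1, an mTORC1 inhibitor, fell by 0.34 (adjusted p = 0.0103). The calls in the lists that follow stand beside the same 15.5% of all tested genes called higher and 10.7% called lower. Of 6 termination and recycling factors, Abce1 rose by 0.77 (adjusted p = 0.00226) and Etf1, the release factor, by 0.48 (adjusted p = 0.00579). None of the 5 poly(A)-binding genes and none of the 3 reinitiation genes was called. Of 10 mitochondrial translation factors, Mtif2 rose by 0.84 (adjusted p = 0.00177) and Guf1 by 0.58 (adjusted p = 0.00748), and Tufm, the mitochondrial counterpart of eEF1A, fell by 0.30 (adjusted p = 0.0242). With the length and GC trends of all genes removed, only Mtif2 (0.66, adjusted p = 0.0109) of these 10 genes was still called. Rps6kb1 was then at 0.11, Tsc1 at 0.20, Pdcd4 at 0.21, Larp1 at 0.18 and Akt1s1 at -0.019, with adjusted p-values from 0.252 to 0.921. Abce1 was at 0.24, Etf1 at 0.22, Guf1 at 0.22 and Tufm at -0.052, with adjusted p-values from 0.188 to 0.769. Eif2ak2 kept its call, at 0.81 (adjusted p = 0.0353). Tsc2, the partner of Tsc1, was called after removal alone, at -0.29 (adjusted p = 0.0462).

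Taken as a list, the TOP mRNA factors were lower or not called. Of the 9 genes, 5 fell (Eif3f, Eef2, Eef1g, Eef1b2 and Eif3h) and none rose, beside 10.7% and 15.5% of all tested genes. Their median log2 fold change was -0.33, and in 7 of them both fructose libraries lay below both control libraries. The same held for 30 of the 58 tested members and 31.6% of all tested genes. It held for 2367 of the 4410 tested genes no longer than 2446 bases and for 1709 of the 8474 longer ones. Among the tested genes no longer than 2446 bases 23.1% fell and 3.61% rose, and among the longer ones 4.24% and 21.7%. Eif3f, Eef2, Eef1d and Eif4b, at 2514 to 3854 bases, belong to the longer genes. Over the other 49 tested members the median was -0.10, and 8 were called higher and 12 lower, beside the same 15.5% and 10.7% of all tested genes. The TOP factors had a median transcript length of 1939 bases, below the 2446 bases of all tested members.

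The direction of the members followed transcript length. The 8 higher members had a median length of 4588 bases (2084 to 8134) and the 17 lower members one of 1864 bases (909 to 3316). The GC content of these transcripts had a median of 43.5% in the higher and 53.2% in the lower members. Their 3′ untranslated regions differed more (medians of 1836 and 303 bases) than their coding sequences (2054 and 1056 bases). Across the 58 tested members, the Spearman correlation of the log2 fold change was 0.52 with transcript length and -0.59 with GC content, and over all tested genes it was 0.52 and -0.53. These correlations are across genes of the same 4 libraries, which share depth and base composition, and are given as descriptions. Between the libraries of a group the correlation of the log2 ratio with length was -0.12 in control and 0.10 in fructose over the members, and 0.01 and 0.17 over all tested genes.

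Split at the members' median of 2446 bases, the 29 short members had a median log2 fold change of -0.26 and the 29 long members one of 0.02. Of the short members, 2 were called higher (Eef1a2 and Eif3j2) and 13 lower (44.8%), while 3.61% of the 4410 short genes tested were called higher and 23.1% lower, with a median of -0.19. Of the long members, 6 were called higher (Eif5, Eif3a, Eif2s2, Eif4g3, Eif5b and Eif4g2) and 4 lower (13.8%, Eif3f, Eef2, Eif2d and Eif2b5), beside 21.7% and 4.24% of the 8474 long genes, whose median was 0.13. All tested genes thus showed the same direction with length as the members.

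**Figure D3:**
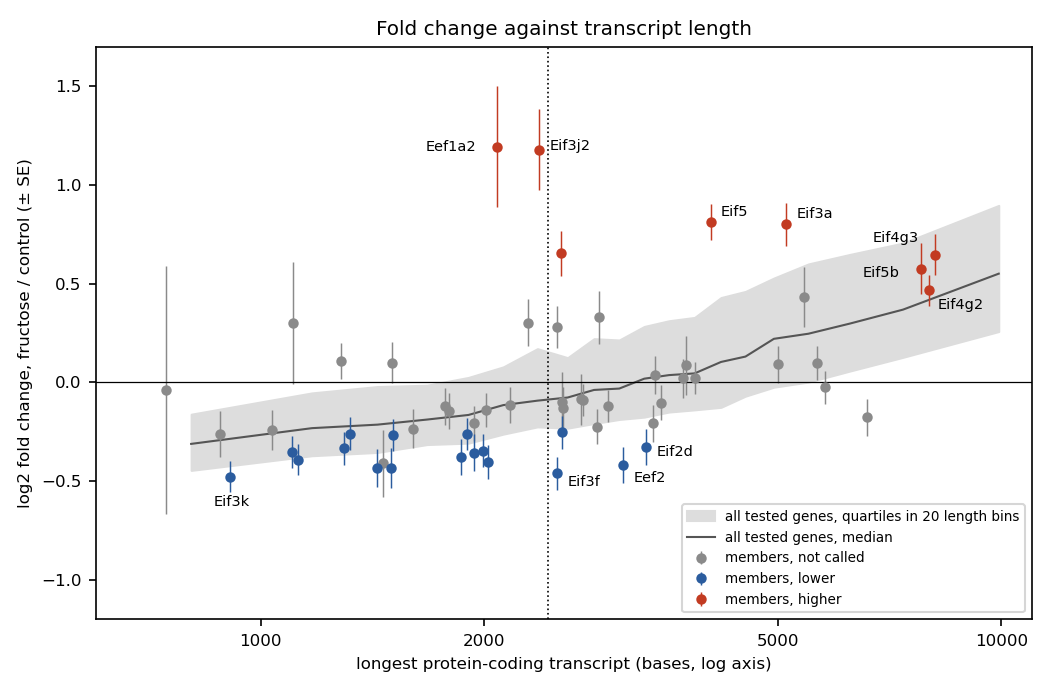
Log2 fold change (fructose over control, with SE) of the 58 tested members against the length of the longest protein-coding transcript on a log axis, over the median and quartiles of all tested genes in 20 bins of length, with a dotted line at 2446 bases. Eef1a2, Eif3j2, Eif5 and Eif3a stand above the band of all genes, and Eif3f, Eef2 and Eif2d stand below it.

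When the length and GC trends of all genes were removed from each library (lowess offsets), 4 members were called higher and 7 lower, beside 3.46% and 3.42% of all tested genes, and the median over the members was -0.06. All 4 higher calls were among the 8 named above, namely Eef1a2 (1.47), Eif3a (0.44), Eif4g3 (0.38) and Eif5 (0.35). Of the 7 lower calls, 3 were shared with the 17 above, namely Eif3f (-0.41), Eef1b2 (-0.37) and Eif4ebp1 (-0.30, adjusted p = 0.0492). The other 4 were Eif4a2 (-0.53), Eif4e (-0.52), Eif2s1 (-0.43) and Eef2k (-0.40), which were not called before removal and whose transcripts are long or poor in GC. Eef2 was at -0.27 (adjusted p = 0.123), Eif5a at -0.16 (adjusted p = 0.314) and Eif4g2 at -0.13, the opposite sign to its value before removal. All 9 TOP mRNA factors had negative values after removal, with a median of -0.20 and 2 lower calls, beside 3.42% of all tested genes. Negative values were also held by 39 of the 58 tested members and by 6581 of the 12888 tested genes. Among the eIF3 subunits other than eIF3j, Eif3a stayed higher and Eif3f lower, and the median over the 12 went from -0.23 to -0.08. Eif3a, Eif5 and Eif3f were the 3 members called under every alternative examined.

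**Figure D4:**
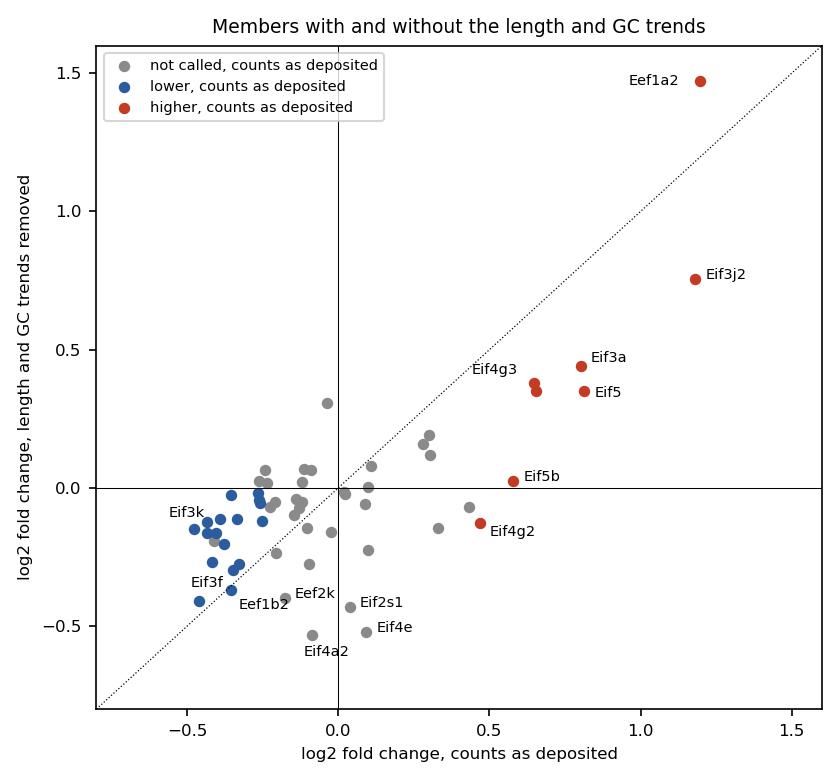
Log2 fold change of each tested member from the counts as deposited (horizontal axis) and after removal of the length and GC trends (vertical axis), coloured by the call on the counts as deposited, with a dotted line of equality. Most lower members move toward 0, Eef1a2 stays at the top right, and Eif4a2, Eif4e, Eif2s1 and Eef2k fall below 0.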

How the data were processed

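RNA-seq was performed on fetal BAT, with 2 libraries per group. Per the labels and the study's methods, the authors filtered reads with fastp, mapped them to mm10 with Bowtie2 (2.0.0.5) and TopHat2 (2.0.0), assembled transcripts with StringTie (2.2.0), merged them with Cuffmerge and deposited raw counts per gene, without normalization. The counting tool and its treatment of strand and of multiply mapped reads are not given in the sources used here. The 4 deposited files of individual libraries repeat the columns of the joint table.

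Symbols, coordinates and the longest protein-coding transcript came from the GENCODE annotation of GRCm38, in which 43 of 22298 identifiers had no match. Genes kept by filterByExpr were tested with edgeR 4.0.16 (R 4.3.3, TMM, glmQLFTest, two-sided, no covariate), and p-values were adjusted by Benjamini-Hochberg over all 12888 tested genes. Trends were removed as lowess offsets (span 0.3). Shares of 50-base windows in other genes were computed from the annotated transcripts with Python 3.11.15. Further called members with such shares were Eif1 (31.6%), Eif2s2 (27.8%), Eif3h (26.2%) and Eif4a3 (24.4%), whose counts are uncertain too. The tests were checked on counts simulated for the 12888 tested genes, with 200 genes changed 2-fold. The edgeR test recovered 88.5% of these and made 8 false calls. With a length and GC trend put into the simulated fructose libraries, it made 3095 false calls. Once the trends were removed, 6 false calls were left. The size of the simulated trend was set and not fitted to these libraries. Trends of other kinds and changes under 2-fold were not tested in this check. The 17 lower members differed by 1.19-fold (Eif2b5) to 1.39-fold (Eif3k). The count floor of 3 covers counting error only.

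The members, lists and tests were chosen with earlier results of these data known. The members given singly are, per complex, the most abundant and those with the highest and lowest log2 fold change, the paralog groups, the TOP mRNA factors, all called members and called genes of the pathway lists. The macrophage, endothelial and fibroblast markers were also listed (3, 0 and 0 genes called of 6, 5 and 6). Alternatives were DESeq2 1.42.0, its size factors, library size only, other filters on low counts, removal of trends, a block on the replicate number, mitochondrially encoded genes left out and each library left out, where the lone library of a group is assumed to vary like the other group. Protein sequences were not used here.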

Additional observations from a re-analysis of the deposited data

How the results depend on the processing

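With 2 libraries per group, the p-values rest on few degrees of freedom. Leaving out 1 library moved the count of members higher in fructose between 7 and 10, that of lower members between 9 and 20, and the medians between -0.18 and -0.10 over all members, between -0.29 and -0.19 over the short and between -0.0015 (without fructose library 2) and 0.028 over the long members. By the thresholds of the study's methods these counts ran from 8 to 11 higher and from 7 to 10 lower. Low counts limit Eef1a2, Eif3j2, Eif4ebp3 and Eef1akmt2.

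Same-numbered libraries did not deviate together over all tested genes (correlation of -0.027). A single correlation over all genes cannot exclude that same-numbered libraries share an origin that acts on part of the genes. With the replicate block 9 members were higher and 17 lower, and among the 49 named members 48 kept their call, the other being Eif3j1, called at 0.44. DESeq2 gave 8 higher and 15 lower members, no filter and a minimum of 10 counts each gave 9 and 17, and DESeq2's size factors and leaving out mitochondrially encoded genes each gave 8 and 17. None of these reversed a named member.

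With library size only, 10 members were higher and 12 lower, the median was -0.060 over the members and 0.081 over the long members where that of all genes shifted to 0.063, 2 members passed the lower threshold of the study's methods, and Eif4ebp2 (0.0355) and Eif4ebp3 (0.021) reversed. Splitting at the median length of all tested genes gave a median of 0.087 over 17 long members.

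With the length trend removed, 7 members were higher and 6 lower, 3 passed the lower threshold of the study's methods, and the medians were -0.062 over all, -0.066 over the short and -0.061 over the long members. Reversed were Eif1b (0.0068), Eif2s1 (-0.0036), Eif4a1 (0.0265), Eif4b (-0.063), Eif4e (-0.11), Eif4g1 (-0.16), Eif4ebp3 (0.26), Eif4enif1 (-0.050) and Eef1a1 (0.00038).

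With the GC trend removed, 4 were higher and 12 lower, 4 passed the higher threshold of the study's methods, and the medians were -0.17 over all and -0.060 over the long members. Reversed were Eif1a (-0.28), Eif2s1 (-0.51), Eif2b3 (-0.060), Eif3e (-0.49), Eif4e (-0.48), Eif4ebp2 (0.0365), Eif4ebp3 (0.051) and Eef1akmt2 (-0.10).

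With both trends removed, 4 were higher and 7 lower (5 and 7 with the replicate block), 4 and 5 passed the thresholds of the study's methods, and the medians were -0.063 over all (-0.062 with the block), -0.050 (-0.048) over the short and -0.072 (-0.070) over the long members. Reversed, at the value without and, where it differs, with the replicate block, were Eif1a (-0.14), Eif1b (0.064), Eif2s1 (-0.43), Eif2b3 (-0.057 and -0.056), Eif3e (-0.22 and -0.23), Eif3j1 (-0.069), Eif4b (-0.022), Eif4e (-0.52), Eif4g2 (-0.13), Eif4ebp3 (0.31 and 0.28), Eif4enif1 (-0.013) and Eef2kmt (0.070 and 0.071). The removal takes out what all genes of a length or GC content share, and whether that is technical was not tested.

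Over the fits without 1 library, the values of the genes that reversed in any of them ran from -0.016 to 0.21 for Eif3e, from -0.27 to 0.11 for Eif4a2, from -0.031 to 0.076 for Eif4b, from -0.079 to 0.030 for Eif4ebp2, from -0.89 to 0.52 for Eif4ebp3, from -0.029 to 0.070 for Eif4enif1, from -0.14 to 0.95 for Eef1akmt2 and from -0.21 to 0.022 for Eef1e1. Without control library 1 Eef1akmt2 was called at 0.95 (edgeR, adjusted p = 0.0203).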
